A study of Mus musculus with 4 samples.

Results

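The integrin and laminin genes of the mouse heart were followed across cell classes and between hearts labelled as a conditional knockout of Pkp2 and control hearts. Members were all genes whose symbol began with Itga, or was Itgb or Lama, Lamb or Lamc followed by a single digit. This gave 37 of the 44628 gene identifiers in the files, of which 18 encode integrin alpha chains, 8 integrin beta chains and 11 laminin chains. Expression was read from 4 single-nucleus RNA libraries (BD Rhapsody, a microwell method), in which a unique molecular identifier (UMI) stands for a single RNA molecule and a cell label for its nucleus. The knockout libraries (cKO, n = 2) came from mice labelled PKP2fl/fl MCM cre/+, in which the loxP-flanked Pkp2 gene can be removed by Cre. The control libraries (n = 2) came from mice labelled MCM cre/+ in their titles, whereas their genotype tag reads wt. The titles thus name the Cre line MCM in both groups, without its promoter. All mice were given tamoxifen and were 8 weeks old, and whole hearts were taken 2 weeks after the injection. Hearts of 2 mice, a male and a female, were pooled for each library, and the pool is the unit of replication.

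Integrins are receptors made of an alpha and a beta chain that span the cell membrane and tie the matrix outside the cell to actin inside it. The alpha chain largely sets which ligand is bound: collagen, laminin, proteins with an RGD motif such as fibronectin and vitronectin, or partners on other cells for the leukocyte integrins. Laminins are trimers of an alpha, a beta and a gamma chain that form the basement membrane around heart muscle cells and vessels, and loss of the LAMA2 chain causes a muscular dystrophy in people.

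Libraries are called cKO 1, cKO 2, control 1 and control 2 by the replicate number in their labels, and the values of a group follow that number. After filtering, 3665 and 6268 cKO nuclei and 2834 and 6032 control nuclei remained, and 26 clusters were named by marker genes or left unnamed. The libraries held 20992683 and 40536562 UMIs in the cKO group and 13491201 and 35204091 UMIs in the control group. The cell type tag in the labels reads cardiomyocyte, but nuclei with markers of fibroblasts, vessels and leukocytes made up more than the cardiomyocyte nuclei in both cKO libraries, where cardiomyocytes were 32.7% and 24.9% of nuclei, against 52.1% and 42.5% in the control libraries. Pkp2 itself did not mark the deletion: in cardiomyocytes it stood at 615 and 592 CPM (UMIs of a gene relative to the class total, scaled between libraries) in cKO and at 566 and 554 CPM in control libraries, which is a difference of 0.11 ± 0.14 on the log2 scale (SE, adjusted p = 0.818, edgeR). Counts per gene need not cover only the deleted exons, so the groups are those of the labels. Esr1, whose sequence is part of tamoxifen-inducible Cre transgenes, stood at 3571 and 3336 CPM in cKO and at 78.1 and 64.8 CPM in control cardiomyocytes, although the titles name the Cre line in both groups. Effects of such a difference and of Pkp2 cannot be told apart here.

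Of the 37 genes, 13 had a mean level in 1 class at least 2 times that in the next class with at least 20 UMIs there, and the other 24 did not. Levels in this and the next paragraphs on classes are CPM of the class total over the 4 libraries (mean ± SD, n = 4), and they are descriptions, because the clustering that made the classes used expression itself. Each gene is compared only with itself across classes, since levels of different genes depend on gene length.

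Among the collagen receptors, Itga11, the alpha chain of a fibrillar collagen receptor of fibroblasts, was led by fibroblasts at 99.2 ± 41.4 CPM, with 142 and 127 CPM in cKO and 62.1 and 65.6 CPM in control libraries. Lymphatic endothelium came next with a mean that rested on 6 UMIs, and the ranges overlapped. Itga1, which pairs with the beta 1 chain to bind collagen and laminin, was highest in mural nuclei (pericytes and smooth muscle) at 1001 ± 195 CPM and second in endothelium at 529 ± 111 CPM, and the lowest mural library was above the highest endothelial one.

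Of the laminin receptors, Itga7, the muscle alpha chain, was led by mural nuclei, with 389 and 314 CPM in cKO and 423 and 258 CPM in control libraries. Cardiomyocytes followed at 73.1 ± 13.6 CPM, and no library of theirs reached the lowest mural one. Itga6, the laminin receptor of endothelium, was highest in endothelial nuclei at 367 ± 75.5 CPM and next in lymphatic endothelium at 237 ± 46.1 CPM, with overlapping ranges. Itga3 was likewise highest in endothelium, at 57.5 ± 10.9 CPM.

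Among the RGD-binding chains, Itga8, a receptor chain for nephronectin and fibronectin known from smooth muscle, was led by mural nuclei, with 109 and 212 CPM in cKO and 110 and 110 CPM in control libraries. Within the mural class, smooth muscle stood at 827 CPM and pericytes at 85.5 CPM when the libraries were pooled. Itga5, the classical fibronectin receptor chain, had no leading class: fibroblasts (245 ± 38.3 CPM), macrophages (215 ± 98.0 CPM), lymphatic endothelium (211 ± 62.4 CPM) and endothelium (211 ± 60.9 CPM) overlapped. Itgav, the alpha chain shared by vitronectin receptors and the integrins that activate latent TGF-beta, was highest in macrophages at 173 ± 105 CPM, again overlapping with lymphatic endothelium and fibroblasts.

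Itga9, whose integrin guides lymphatic valve formation and binds tenascin C, was led by lymphatic endothelium, with 636 and 990 CPM in cKO and 581 and 1092 CPM in control libraries. All other classes were lower, macrophages coming next at 237 ± 91.8 CPM. Itga4, the partner of beta 1 and beta 7 in leukocyte homing, had its highest levels in lymphocytes (309 ± 174 CPM) and macrophages (195 ± 38.2 CPM).

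Among the leukocyte integrin chains, Itgam, the alpha chain of the complement receptor of myeloid cells, was led by macrophages, with 279 and 354 CPM in cKO and 165 and 208 CPM in control libraries. Itgal, the alpha chain of LFA-1, was led by lymphocytes, with 158 and 216 CPM in cKO and 312 and 228 CPM in control libraries, and 49 UMIs stood behind those values. Itgb7, a beta chain of gut-homing lymphocytes, was led by the same nuclei, with 158 and 130 CPM in cKO and 52.0 and 127 CPM in control libraries from 28 UMIs. Itgb2, the beta chain common to this group, stood at 108 ± 24.4 CPM in macrophages and 102 ± 45.3 CPM in lymphocytes, with overlapping ranges. Itgad, Itgae and Itgax were led by no class under the rule above. Itgad was highest in lymphocytes at 19.4 ± 30.9 CPM (7 UMIs) and next in lymphatic endothelium at 5.59 ± 11.2 CPM (1 UMI). It stood at 1.58 ± 0.50 CPM in cardiomyocytes (47 UMIs) and 1.49 ± 0.98 CPM in macrophages (5 UMIs).

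Among the other beta chains, Itgb1, the partner of most alpha chains, was the most even, ranging over class means between 153 ± 19.4 CPM in cardiomyocytes and 317 ± 77.0 CPM in mural nuclei. Itgb8, which pairs with alpha V to activate latent TGF-beta, was led by fibroblasts, with 123 and 134 CPM in cKO and 75.2 and 93.8 CPM in control libraries. Itgb3, the beta chain of a vitronectin receptor, was led by lymphatic endothelium, with 135 and 123 CPM in cKO and 44.7 and 116 CPM in control libraries. The value of control 1 rested on 2 UMIs and lay below the highest lymphocyte library, at 63.2 CPM. Itgb6, a chain best known from epithelium, was led by cardiomyocytes, with 176 and 196 CPM in cKO and 202 and 250 CPM in control libraries, while endothelium came next at 40.1 ± 24.3 CPM.

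Of the laminin chains, Lama2, the alpha chain of muscle laminin, was highest in fibroblasts at 3211 ± 530 CPM, next in mural nuclei at 2312 ± 238 CPM and then in cardiomyocytes at 1374 ± 80.0 CPM. Fibroblast and mural libraries overlapped by a small margin, and every cardiomyocyte library lay below the mural ones. Lamc1, the gamma chain of most laminins, was led by fibroblasts, with 760 and 813 CPM in cKO and 777 and 962 CPM in control libraries, against 320 ± 26.1 CPM in mural nuclei. Lama4, the alpha chain of vessel laminins, was led by lymphatic endothelium, with 1319 and 2296 CPM in cKO and 1140 and 1965 CPM in control libraries, and the highest endothelial library reached 752 CPM. Lama3, an alpha chain known from epithelium, was led by endothelium, with 44.2 and 62.2 CPM in cKO and 31.8 and 34.1 CPM in control libraries, and was among the genes that led the Sema3g and Gja5 endothelial cluster. Lama5 was alike in cardiomyocytes (165 ± 36.5 CPM) and endothelium (155 ± 37.2 CPM), and Lamb2 overlapped between endothelium (123 ± 19.1 CPM), mural nuclei (113 ± 13.4 CPM) and fibroblasts (108 ± 22.4 CPM).

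**Figure D1:**
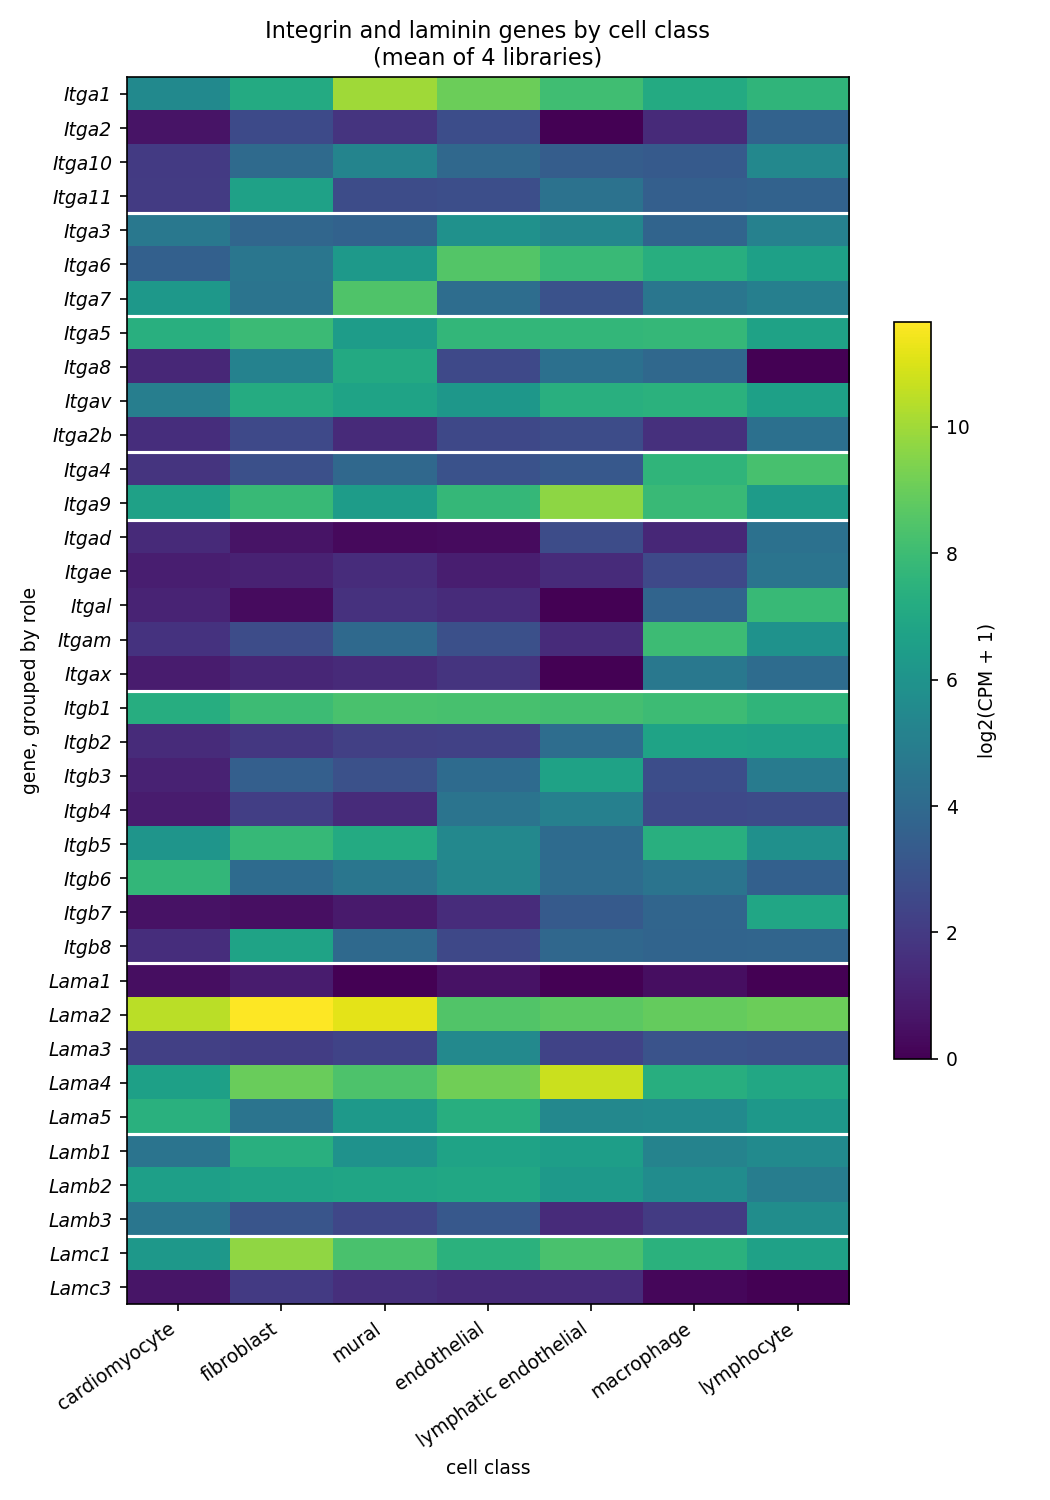
Mean level of members over the 4 libraries in 7 cell classes, as log2(CPM + 1), with genes in rows grouped by role (white lines) and classes in columns; colours are to be compared along a row, since levels of different genes depend on gene length. Itga9 and Lama4 are brightest in lymphatic endothelium, Itgb6 in cardiomyocytes, Lamc1 in fibroblasts and Itgam in macrophages.

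The comparison of cKO with control libraries was made in the 5 classes with at least 50 nuclei in every library, on counts summed per library and class, with edgeR's quasi-likelihood test and Benjamini-Hochberg adjustment over all genes of the class. Of the 37 members, 33 had enough counts to be tested in at least 1 class, and Itga2, Itgae, Lama1 and Lamc3 in none. There were 10 calls at an adjusted p under 0.05 in 9 genes, 6 of them upward in the cKO libraries and 4 downward. Of these, 9 calls in 8 genes are described here. In fibroblasts 5 of 24 tested members were called, 3 higher and 2 lower, against 3.66% of all 11890 genes (2.27% higher, 1.39% lower). In endothelium 3 of 24 were called, 1 higher and 2 lower, against 1.62% of 11475 genes (0.392% higher, 1.23% lower). In cardiomyocytes 1 of 27 was called, as higher, against 2.86% of 15446 genes (1.31% higher, 1.55% lower). In macrophages 1 of 27 was called, as higher, against 1.3% of 11434 genes (0.743% higher, 0.56% lower). Mural nuclei gave 0 calls among 18 members, against 0.141% of 8516 genes (0.106% higher, 0.0352% lower); 2 members had an unadjusted p under 0.05 there and DESeq2 also called 0. The median log2 fold change of the tested members was 0.28 in fibroblasts, 0.18 in endothelium, 0.17 in mural nuclei, 0.16 in cardiomyocytes and 0.14 in macrophages, where that of all tested genes lay between 0.00 and 0.02.

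**Figure D2:**
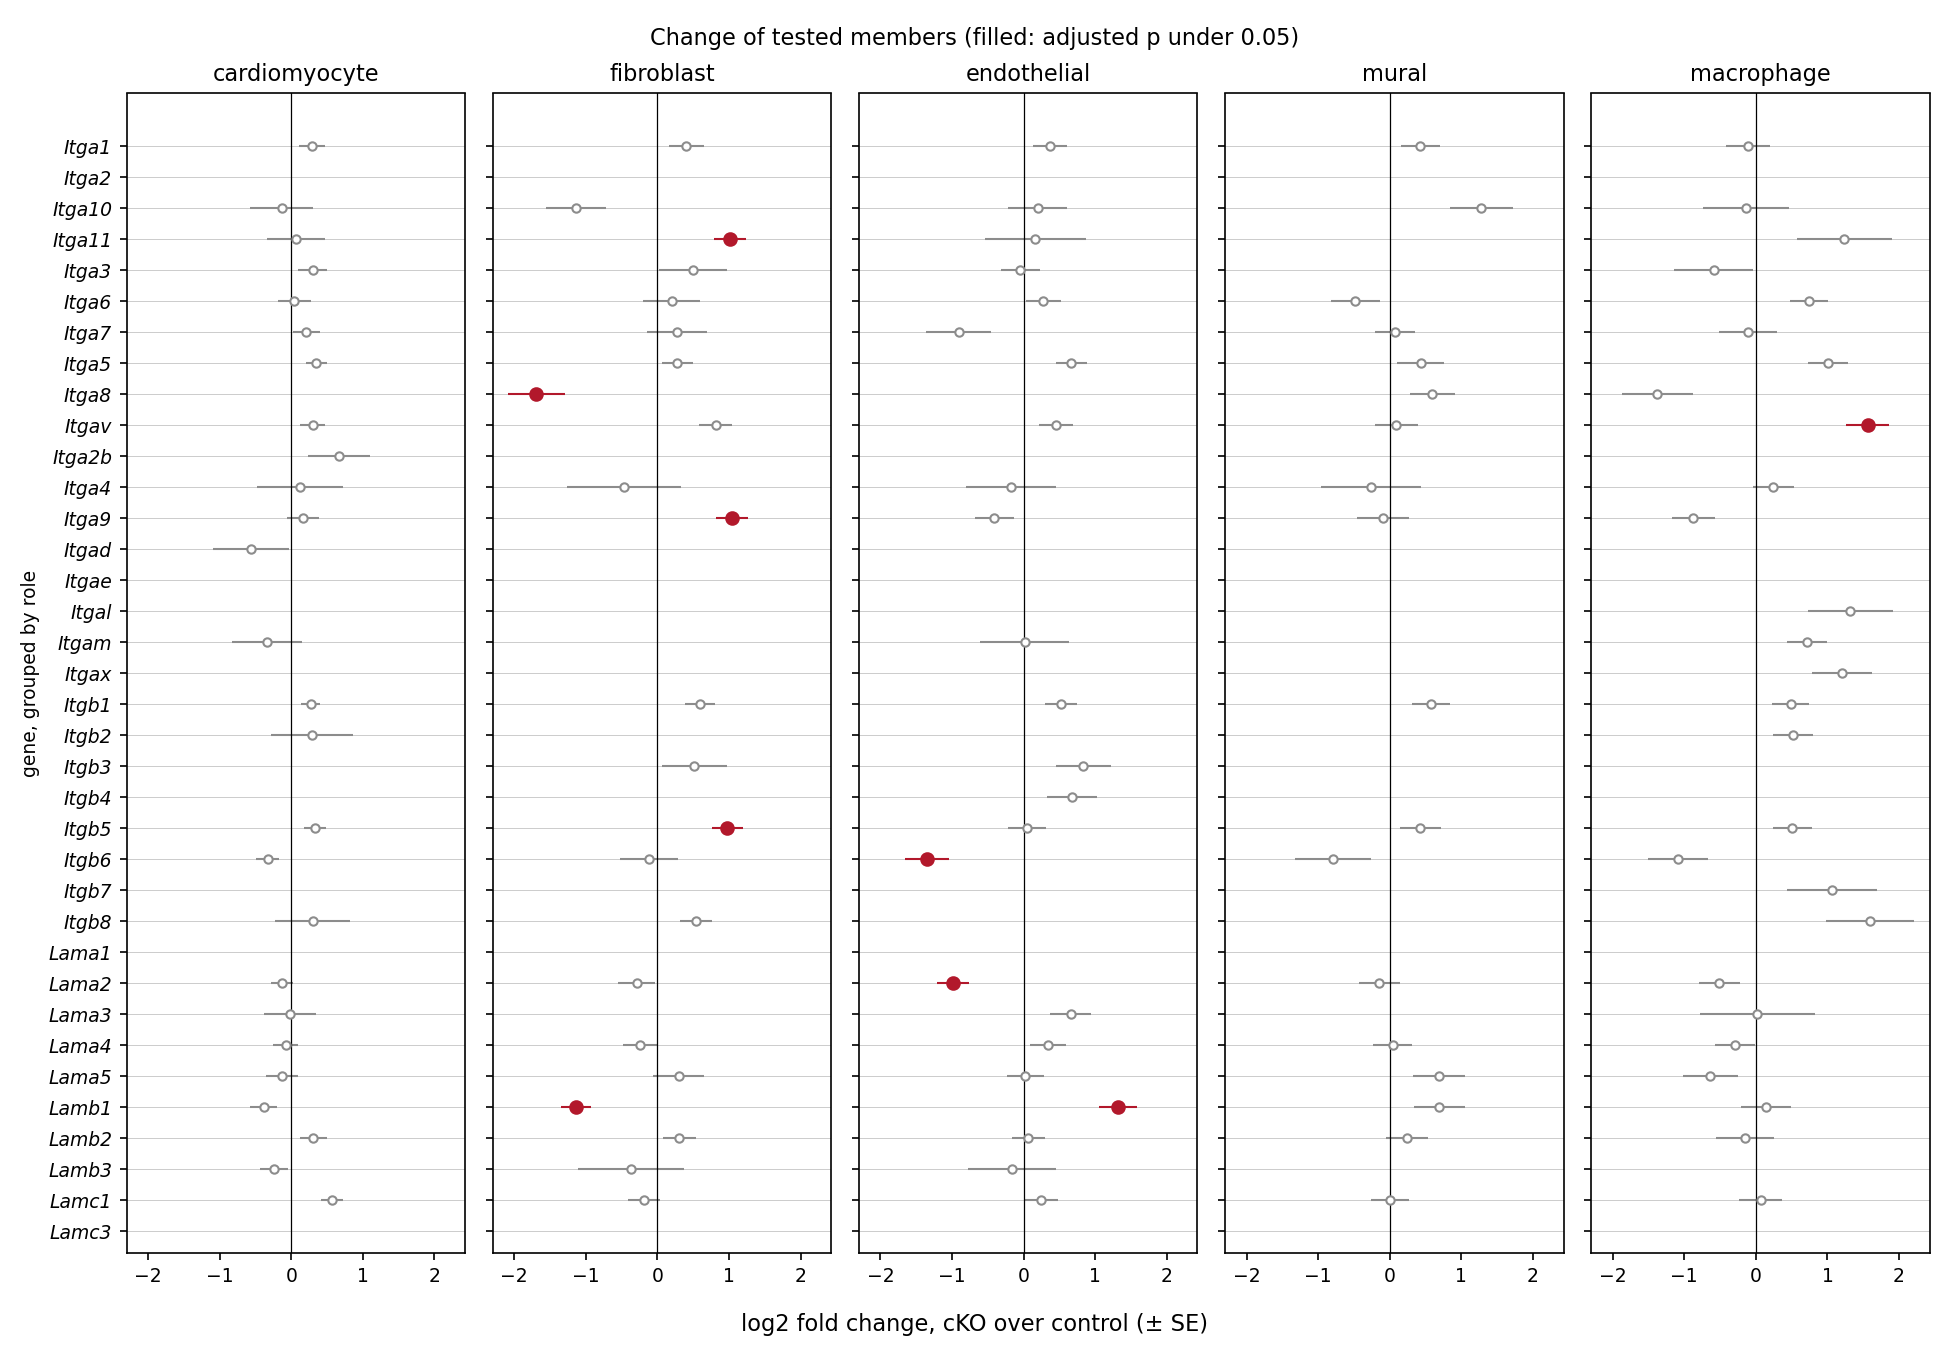
The log2 fold change of tested members, cKO over control, with its SE, in the 5 classes; genes run down the page by role, and filled red points passed the adjusted threshold of 0.05. Lamb1 stands at -1.14 in fibroblasts and at 1.32 in endothelium, and Itgb1 is above 0 in each class without a call.

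Fibroblasts of cKO hearts had more RNA of 3 integrin chains. Itga11 stood at 140 and 131 CPM in cKO and 62.7 and 69.3 CPM in control fibroblasts, a log2 difference of 1.02 ± 0.22 (SE, adjusted p = 0.0203, edgeR). Itga9 stood at 279 and 349 CPM in cKO and 141 and 163 CPM in control fibroblasts (1.04 ± 0.22, adjusted p = 0.0188). Itgb5, the beta chain of another vitronectin receptor, stood at 274 and 333 CPM in cKO and 142 and 164 CPM in control fibroblasts (0.98 ± 0.22, adjusted p = 0.0245). Both cKO libraries were above both control libraries for all 3 genes. The genes lie at chromosome 9, 62677826 to 62783982 (Itga11), chromosome 9, 118606690 to 118901003 (Itga9), and chromosome 16, 33829665 to 33949338 (Itgb5), all on the plus strand, in GENCODE M21 coordinates of GRCm38.

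The fibroblast class differed in makeup between the groups. A cluster led by Postn and Cilp, genes of activated fibroblasts, held 563 and 1084 nuclei in cKO and 58 and 88 in control libraries, while a cluster led by Scara5 and Gfra1 held 64 and 177 nuclei in cKO and 384 and 1072 in control libraries. Within the Postn cluster Itgb5 stood at 285 and 347 CPM of the cluster total in cKO and at 177 and 197 CPM in control libraries, and within the Scara5 cluster at 218 and 251 CPM in cKO and at 134 and 151 CPM in control libraries. Itga9 lay the same way in both clusters, with 291 and 352 CPM in cKO and 177 and 258 CPM in control nuclei of the Postn cluster, and with 206 and 251 CPM in cKO and 131 and 144 CPM in control nuclei of the Scara5 cluster. Itga11 did not overlap in the Postn cluster (150 and 136 CPM in cKO, 72.9 and 84.2 CPM in control) but overlapped in the Scara5 cluster (57.3 and 103 CPM in cKO, 59.8 and 63.8 CPM in control). These cluster values carry no test, since the clusters were made from expression.

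The difference between classes was tested for members called in at least 1 class, in a joint fit with library and class as terms. The change of Itga9 in fibroblasts exceeded that in cardiomyocytes by 0.96 ± 0.23 (SE, adjusted p = 0.0128, edgeR), in endothelium by 1.40 ± 0.24 (adjusted p = 0.000932) and in macrophages by 1.91 ± 0.24 (adjusted p = 1.61e-05). That of Itgb5 exceeded the cardiomyocyte change by 0.68 ± 0.20 (adjusted p = 0.0495). For Itga11 no difference passed the threshold, and that with macrophages was -0.24 ± 0.59 (adjusted p = 0.935, edgeR). The calls in fibroblasts depended on single libraries. Itga11 was not called without cKO 1 (0.98, adjusted p = 0.0679), control 1 (0.95, adjusted p = 0.0580) or control 2 (1.11, adjusted p = 0.0952), nor with DESeq2 (adjusted p = 0.0561). Itga9 was not called without cKO 2 (0.86, adjusted p = 0.144) or control 1 (0.94, adjusted p = 0.0858), and Itgb5 not without cKO 2 (0.82, adjusted p = 0.177), control 1 (0.89, adjusted p = 0.120) or control 2 (adjusted p = 0.0719). At a limit of 20% mitochondrial UMIs Itga11 was at 0.63 (adjusted p = 0.151) and Itga9 at 0.67 (adjusted p = 0.153), without calls. Cardiomyocyte markers in fibroblasts summed to 7010 and 5157 CPM in cKO and 8870 and 6678 CPM in control libraries; in fibroblast nuclei with at most 0.5% of UMIs from them Itga11 (0.98, adjusted p = 0.0361) and Itgb5 (1.00, adjusted p = 0.0260) were called and Itga9 was not (0.82, adjusted p = 0.0717).

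Regions before the start sites of these 3 genes, which rose together, are shown as 250 bases before and 50 after the RefSeq start (GRCm38.p6). Capitals mark a match to the AP-1 motif TGANTCA on either strand, which 7.81% of 32851 promoter windows of that length hold. The windows were also searched for the TEAD motif GGAATG (14.7% of all windows), TATAAA (13.6%), the GATA motif AGATAA (11.2%), the CArG box (1.63%) and the MEF2 site (3.19%). In these 3 windows the AP-1 match in Itga9, whose listed start lies inside the gene, was the only one. A match is a run of letters and not a measured site.
Itga11, chr9:62677605-62677904, plus strand: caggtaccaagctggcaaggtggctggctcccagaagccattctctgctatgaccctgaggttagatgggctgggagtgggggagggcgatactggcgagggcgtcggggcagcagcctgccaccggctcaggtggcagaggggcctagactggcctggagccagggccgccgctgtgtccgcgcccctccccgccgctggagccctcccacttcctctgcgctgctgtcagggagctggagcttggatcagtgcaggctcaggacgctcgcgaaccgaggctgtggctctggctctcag
Itga9, chr9:118711442-118711741, plus strand: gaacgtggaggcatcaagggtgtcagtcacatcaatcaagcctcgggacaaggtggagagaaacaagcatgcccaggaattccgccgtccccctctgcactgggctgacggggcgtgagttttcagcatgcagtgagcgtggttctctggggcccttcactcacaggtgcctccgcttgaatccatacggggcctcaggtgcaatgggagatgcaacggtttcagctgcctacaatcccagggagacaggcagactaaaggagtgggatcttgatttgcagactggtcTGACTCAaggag
Itgb5, chr16:33829415-33829714, plus strand: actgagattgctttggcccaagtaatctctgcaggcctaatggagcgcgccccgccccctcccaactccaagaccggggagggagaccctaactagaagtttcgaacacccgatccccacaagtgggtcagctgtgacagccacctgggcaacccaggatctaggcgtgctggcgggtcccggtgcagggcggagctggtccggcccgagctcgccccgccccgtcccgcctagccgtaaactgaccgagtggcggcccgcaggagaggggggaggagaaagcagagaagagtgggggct

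Itga8 fell in cKO fibroblasts. It stood at 7.91 and 24.2 CPM in cKO and 41.8 and 68.8 CPM in control fibroblasts, a log2 difference of -1.69 ± 0.39 (SE, adjusted p = 0.0292, edgeR), and the groups did not overlap. In mural nuclei, where Itga8 is highest, it stood at 111 and 233 CPM in cKO and 115 and 119 CPM in control libraries, with overlap (0.59 ± 0.32, adjusted p = 0.991, edgeR). The fibroblast change was lower than the mural one by a difference of -2.36 ± 0.39 (adjusted p = 0.00160, edgeR). The 8 smooth muscle markers, with none of the 8 at 0, summed to 1830 and 2211 CPM in cKO and 1077 and 1155 CPM in control mural nuclei, and their part in the mural value and in this difference was not tested. In the Scara5 cluster Itga8 stood at 22.9 and 42.8 CPM in cKO and 48.3 and 62.7 CPM in control nuclei, while in the Postn cluster the groups overlapped (6.80 and 21.5 CPM in cKO, 10.4 and 89.8 CPM in control, the lower control value from 1 UMI). Without control 2 the fall was -1.21 and was not called (adjusted p = 0.176, edgeR).

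Lamb1, the beta chain of the widespread laminins, moved in opposite directions in 2 classes. In fibroblasts it fell to 98.4 and 111 CPM in cKO, against 228 and 235 CPM in control libraries, a log2 difference of -1.14 ± 0.21 (SE, adjusted p = 0.00771, edgeR). In endothelium it stood at 154 and 148 CPM in cKO and 80.0 and 48.1 CPM in control libraries (1.32 ± 0.26, adjusted p = 0.0167). The groups did not overlap in either class. The change in fibroblasts was lower than that in endothelium by a difference of -2.57 ± 0.25 (adjusted p = 8.17e-07, edgeR), than that in mural nuclei by -1.75 ± 0.32 (adjusted p = 0.00425) and than that in macrophages by -1.26 ± 0.31 (adjusted p = 0.0403). The endothelial change was above that of cardiomyocytes by 1.86 ± 0.26 (adjusted p = 0.000137, edgeR).

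By cluster, Lamb1 in fibroblasts was as follows. In the Scara5 cluster it stood at 263 and 211 CPM in cKO and 249 and 231 CPM in control nuclei, with overlap, and in the Postn cluster at 85.5 and 98.8 CPM in cKO and 125 and 135 CPM in control nuclei, without overlap. In endothelium the largest cluster, led by Car4 and Rgcc and holding 525 and 982 cKO and 206 and 540 control nuclei, stood at 225 and 216 CPM in cKO and 102 and 56.8 CPM in control nuclei. In the endocardial cluster, led by Npr3 and Nrg1, it stood at 56.6 and 86.1 CPM in cKO and 54.2 and 57.0 CPM in control nuclei, with overlap. Summed fibroblast markers in endothelium were 1069 and 719 CPM in cKO and 986 and 828 CPM in control libraries, with overlap and none of the 11 markers at 0. Without cKO 1 the fibroblast call was lost (-1.06, adjusted p = 0.0631, edgeR), as it was at a limit of 1% mitochondrial UMIs (-0.45, adjusted p = 0.893), and without control 2 the endothelial one (0.93, adjusted p = 0.204).

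Lamb1 lies at chromosome 12, 31265234 to 31329644, on the plus strand. Its start window is shown because the gene moved both ways, and it held no match to the 6 motifs searched, which says only that those letters are not in the window.
Lamb1, chr12:31265043-31265342, plus strand: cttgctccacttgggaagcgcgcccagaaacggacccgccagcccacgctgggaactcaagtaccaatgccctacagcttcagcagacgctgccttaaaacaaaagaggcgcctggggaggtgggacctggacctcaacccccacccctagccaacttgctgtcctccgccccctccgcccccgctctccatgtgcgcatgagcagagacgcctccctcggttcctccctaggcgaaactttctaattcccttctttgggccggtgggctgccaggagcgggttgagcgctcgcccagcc

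**Figure D3:**
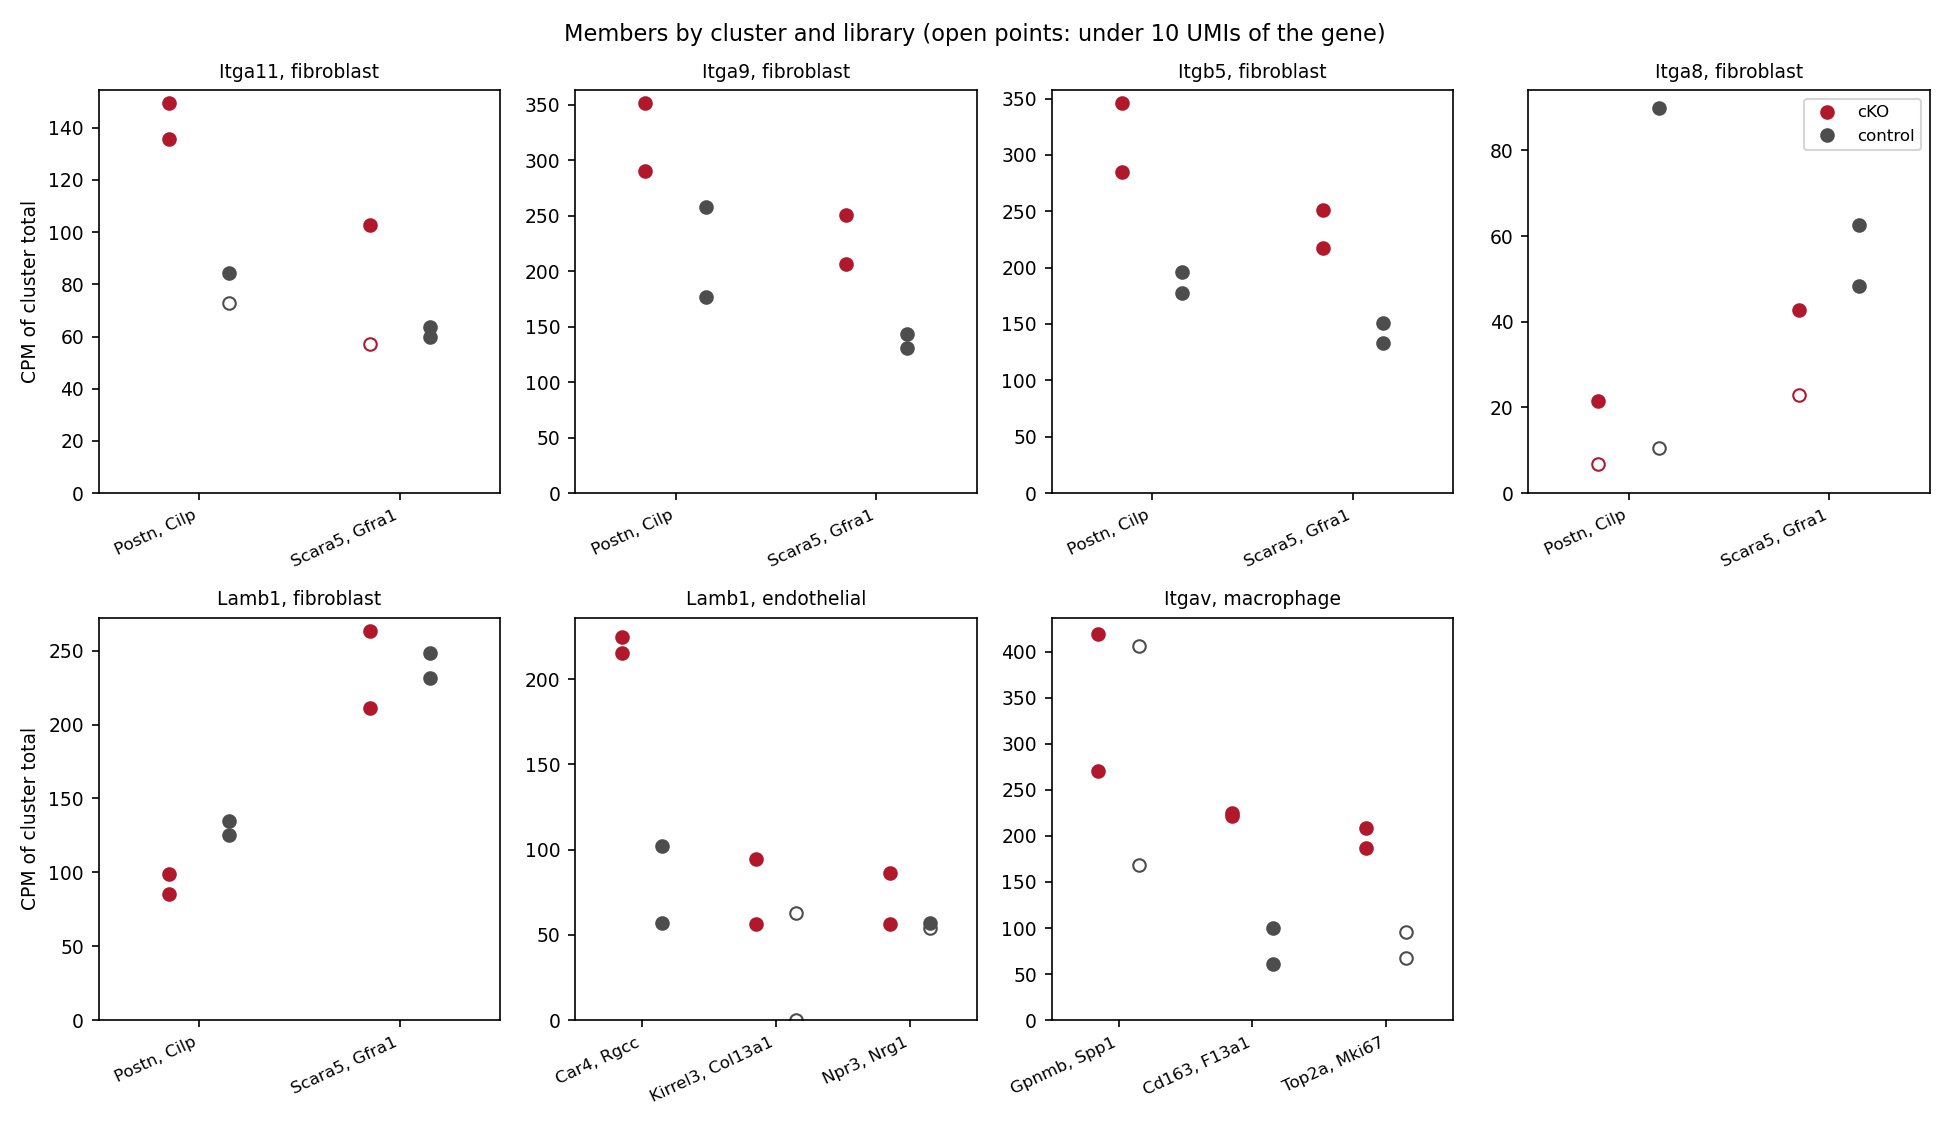
Level of called members in the larger clusters of their class, as CPM of the cluster total, with 1 point per library, cKO (red) left of control (grey) in each cluster; open points rest on under 10 UMIs of the gene and clusters are named by leading genes. Itgb5 and Itga9 separate the groups within both fibroblast clusters, whereas Lamb1 in fibroblasts differs more between the clusters than between the groups.

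Lama2 and Itgb6 fell in cKO endothelium. Of the 7 classes with levels, endothelium had the lowest mean of Lama2, at 363 ± 133 CPM. Its highest library, at 497 CPM, lay below every fibroblast, mural and cardiomyocyte library. Its libraries overlapped with those of lymphatic endothelium (422 ± 284 CPM), lymphocytes (529 ± 268 CPM) and macrophages (483 ± 118 CPM). Itgb6 was led by cardiomyocytes, at 206 ± 31.5 CPM. Lama2 stood at 254 and 246 CPM in cKO and 513 and 479 CPM in control endothelium, a log2 difference of -0.99 ± 0.22 (SE, adjusted p = 0.0325, edgeR). Itgb6 stood at 22.5 and 22.0 CPM in cKO and 75.9 and 44.7 CPM in control endothelium (-1.35 ± 0.31, adjusted p = 0.0392). Neither gene's groups overlapped, and no difference from the change in another class passed the threshold. Lama2 lies on chromosome 10, 26980036 to 27619758, and Itgb6 on chromosome 2, 60598292 to 60722643, both on the minus strand.

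The 11 cardiomyocyte markers were also lower in cKO endothelium, and the part of RNA from other classes in the 2 falls was not tested. Their summed level in endothelium was 10293 and 6965 CPM in cKO and 19712 and 13547 CPM in control libraries, with none of the 11 at 0. In endothelial nuclei with at most 0.5% of UMIs from those markers, 448 and 990 cKO and 135 and 390 control nuclei, the sum, limited by that choice, was 2667 and 2785 CPM in cKO and 2728 and 2936 CPM in control. In those nuclei Itgb6 stood at 5.91 and 8.14 CPM in cKO and 6.45 and 5.31 CPM in control libraries, from 4 and 15 UMIs in cKO and 1 and 3 UMIs in control, too few to be tested. Lama2 stood at 189 and 199 CPM in cKO and 271 and 301 CPM in control libraries there, without overlap but with no call (-0.57 ± 0.25, adjusted p = 0.501, edgeR). Lamb1 stood at 180 and 168 CPM in cKO and 96.7 and 62.0 CPM in control libraries there, also without overlap and just outside the threshold (1.26 ± 0.30, adjusted p = 0.0557, edgeR). Lama2 lost its call whichever library was left out, its adjusted p lying between 0.0638 without control 2 and 0.265 without cKO 2, while its log2 change lay between -1.02 and -0.93. Itgb6 lost it without cKO 2 (-1.33, adjusted p = 0.109) and without control 1 (-0.998, adjusted p = 0.181).

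The start window of Lama2 held a match to the CArG box, in capitals, as did 1 of the 2 listed windows of Itgb6. Both windows with a match lie inside their genes, and the window at the 5′ end of Itgb6 held none. Over the 9 windows of called members in the table, 2 held this match and 1 the AP-1 match.
Lama2, chr10:27616893-27617192, minus strand: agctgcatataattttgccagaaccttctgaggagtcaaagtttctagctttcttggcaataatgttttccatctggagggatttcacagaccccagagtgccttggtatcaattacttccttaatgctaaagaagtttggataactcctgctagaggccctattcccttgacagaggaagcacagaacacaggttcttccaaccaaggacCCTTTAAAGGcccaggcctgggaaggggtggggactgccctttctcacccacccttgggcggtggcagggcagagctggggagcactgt

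**Figure D4:**
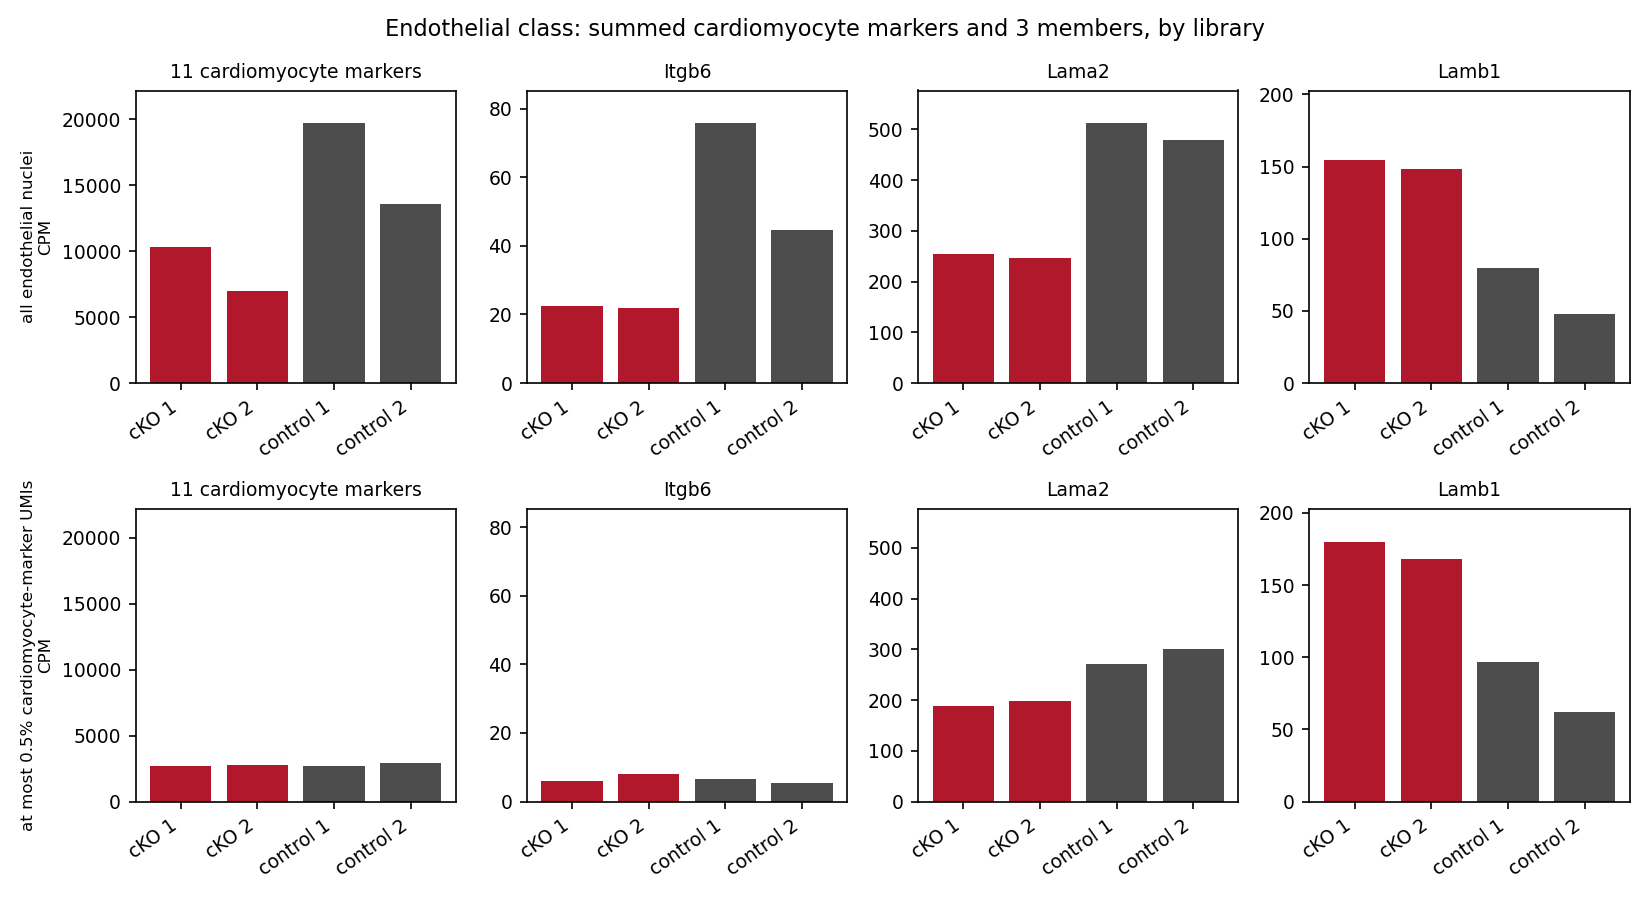
Summed CPM of 11 cardiomyocyte markers and CPM of Itgb6, Lama2 and Lamb1 in the endothelial class, with 1 bar per library, in all nuclei (top) and in nuclei with at most 0.5% of UMIs from those markers (bottom). In the bottom row the marker sum is limited by the choice of nuclei and Itgb6 rests on 1 to 15 UMIs per library, while Lama2 stands at 189 and 199 CPM in cKO and 271 and 301 CPM in control libraries, and Lamb1 at 180 and 168 CPM in cKO and 96.7 and 62.0 CPM in control libraries.

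In macrophages Itgav rose. It stood at 233 and 299 CPM in cKO and 71.6 and 103 CPM in control macrophages, a log2 difference of 1.56 ± 0.30 (SE, adjusted p = 0.0189, edgeR), without overlap. Its change exceeded that in cardiomyocytes by 1.31 ± 0.24 (adjusted p = 0.00217, edgeR) and that in mural nuclei by 1.45 ± 0.29 (adjusted p = 0.0207), while the difference from fibroblasts was 0.77 ± 0.25 (adjusted p = 0.145). The gene lies at chromosome 2, 83724397 to 83806916, on the plus strand.

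A macrophage cluster led by Gpnmb and Spp1 was nearly all cKO, with 237 and 238 nuclei in cKO and 5 and 1 in control libraries, and Itgav stood at 270 and 419 CPM in its cKO nuclei. In the cluster led by Cd163 and F13a1, genes of resident macrophages, which both groups filled, Itgav stood at 222 and 225 CPM in cKO and 61.1 and 101 CPM in control nuclei. Without the Gpnmb cluster the fold change was 1.31 with no call (adjusted p = 0.0779, edgeR). Without control 1 it was 1.35 (adjusted p = 0.161) and without control 2 it was 1.90 (adjusted p = 0.0666), again with no call. Cardiomyocyte markers also differed in this class, at 6254 and 6154 CPM in cKO and 11960 and 10319 CPM in control libraries, and in macrophage nuclei with at most 0.5% of UMIs from them Itgav was still called (1.46 ± 0.34, adjusted p = 0.0303, edgeR).

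**Figure D5:**
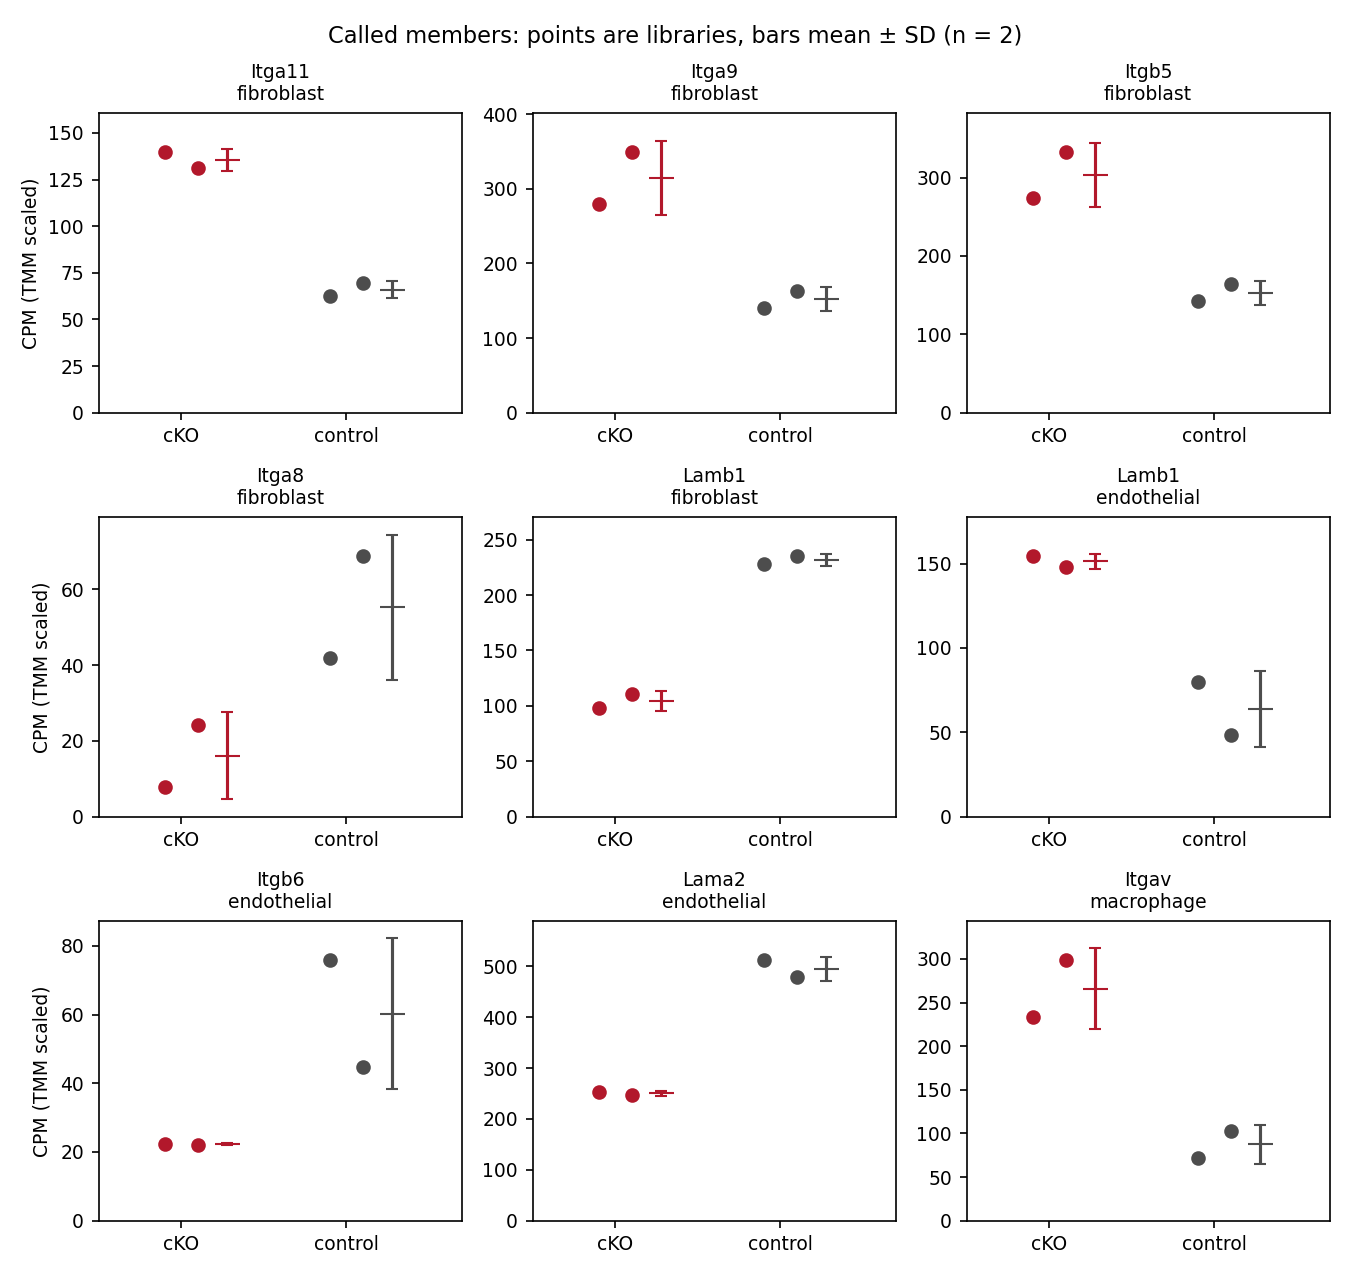
CPM of the 9 described calls, each a gene in its class, with 1 point per library and the mean ± SD (n = 2) beside it, cKO left and control right. For Itga8 in fibroblasts the nearest points are 24.2 CPM in cKO 2 and 41.8 CPM in control 1.

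The remaining members are given by role. In fibroblasts the 3 tested laminin-binding alpha chains lay between 0.20 and 0.49 on the log2 scale and the 3 laminin alpha chains between -0.29 and 0.30, with no call. In macrophages the 3 tested leukocyte alpha chains lay between 0.71 and 1.32 and the 6 beta chains between -1.09 and 1.60, with no call. Of the 27 tested members there, 10 had an unadjusted p under 0.05 (edgeR), the called Itgav among them. The share of all genes under that unadjusted limit was not counted in any class, so such counts are not read as a result about the genes. In cardiomyocytes the 4 tested laminin alpha chains lay between -0.13 and -0.01 and the 3 laminin-binding alpha chains between 0.04 and 0.30. In endothelium the 3 collagen-binding alpha chains lay between 0.16 and 0.36, and in mural nuclei the 18 tested members lay between -0.79 and 1.28.

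Genes that work beside integrins and laminins were counted in 4 lists. Of all tested genes, 3.66% were called in fibroblasts, 1.62% in endothelium, 2.86% in cardiomyocytes, 1.3% in macrophages and 0.141% in mural nuclei. Where only 1 gene of a list was called, this is not read as a result about the list. The fibroblast and macrophage classes differed in makeup between the groups, and its part in the changes of listed genes was not tested. The listed genes were also not refitted with a library left out. Of 29 tested focal adhesion adaptors, the proteins that join integrins to actin, 6 rose and 0 fell in fibroblasts, with a list median of -0.04. Ptk2b, a focal adhesion kinase, rose by 1.79 ± 0.33 (adjusted p = 0.00694, edgeR), Actn1, which crosslinks actin, by 1.46 ± 0.26 (adjusted p = 0.00611), Bcar1, a docking protein, by 1.36 ± 0.35 (adjusted p = 0.0479), and Tns3, a tensin, by 1.08 ± 0.22 (adjusted p = 0.0152). In cardiomyocytes 1 of 29 rose, Zyx (zyxin), by 1.08 ± 0.22 (adjusted p = 0.0338, edgeR). No adaptor of 29 was called in endothelium, mural nuclei or macrophages; 3 in each had an unadjusted p under 0.05, and DESeq2 called 0 in each.

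Other integrin ligands rose in fibroblasts, where 5 of 10 tested passed and 0 fell, with a list median of 0.97. Postn (periostin) rose by 4.41 ± 0.33 (adjusted p = 6.12e-05, edgeR), Fn1 (fibronectin) by 2.99 ± 0.40 (adjusted p = 0.000938), Thbs1 (thrombospondin 1) by 2.74 ± 0.27 (adjusted p = 0.000106) and Tnc (tenascin C, a ligand of the Itga9 integrin) by 2.47 ± 0.33 (adjusted p = 0.000834). In macrophages 4 of 12 rose, with a list median of 0.87: Spp1 (osteopontin) by 4.17 ± 0.56 (adjusted p = 0.00230), Tnc by 4.07 ± 0.57 (adjusted p = 0.00291), Fn1 by 3.39 ± 0.49 (adjusted p = 0.00315) and Postn by 2.42 ± 0.45 (adjusted p = 0.0174). Fibroblast markers in macrophages stood at 3067 and 1163 CPM in cKO and 1526 and 1092 CPM in control libraries, and their part in the macrophage values of Postn, Fn1 and Tnc was not tested. Postn also led the fibroblast cluster with 563 and 1084 cKO and 58 and 88 control nuclei. Spp1 led the macrophage cluster with 237 and 238 cKO and 5 and 1 control nuclei. The part of this makeup in the rises of the ligands was not tested. In endothelium 1 of 10 rose, Icam1, the leukocyte ligand (1.11 ± 0.27, adjusted p = 0.0496, edgeR), which was not called in the nuclei with few cardiomyocyte marker UMIs (0.57, adjusted p = 0.586). None of 12 passed in cardiomyocytes (2 with an unadjusted p under 0.05, 0 by DESeq2) and none of 9 in mural nuclei (2 with an unadjusted p under 0.05, 0 by DESeq2).

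Of the basement membrane partners of laminin, 13 were tested in endothelium, where 3 rose and 2 fell, with a list median of 0.51. Col15a1 rose by 1.45 ± 0.24 (adjusted p = 0.00941, edgeR), and Sparc by 1.17 ± 0.23 (adjusted p = 0.0151). Col4a5 fell by 1.11 ± 0.23 (adjusted p = 0.0225, edgeR) and Col4a1, of the common collagen IV network, rose by 1.06 ± 0.23 (adjusted p = 0.0280). In the endothelial nuclei with few cardiomyocyte marker UMIs Col15a1 (1.47, adjusted p = 0.00694), Sparc (1.23, adjusted p = 0.0110) and Col4a1 (1.01, adjusted p = 0.0409) were called and Col4a5 was not (-0.41, adjusted p = 0.883). The other gene that fell, beyond the limit of 4 named genes, stood at -1.05 in all endothelial nuclei. It was also called in these nuclei (-1.46, adjusted p = 0.00496, edgeR). In fibroblasts 1 of 14 passed, Sparc (1.67 ± 0.25, adjusted p = 0.00192, edgeR), and in cardiomyocytes 1 of 14, Col4a1 (0.81 ± 0.15, adjusted p = 0.0234). In mural nuclei 0 of 14 and in macrophages 0 of 12 were called by edgeR and by DESeq2, with 6 and 3 at an unadjusted p under 0.05.

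The dystroglycan complex and other laminin receptors hold laminin on the muscle membrane. Of 17 tested, 3 fell and 0 rose in endothelium, with a list median of -0.30. Among these, Dmd (dystrophin) fell by a log2 value of -1.23 ± 0.26 (adjusted p = 0.0218, edgeR) and Sgcd (delta sarcoglycan) by -1.06 ± 0.22 (adjusted p = 0.0201). In the endothelial nuclei with few cardiomyocyte marker UMIs neither was called, with Dmd at -0.32 (adjusted p = 0.831) and Sgcd at -0.70 (adjusted p = 0.436). Sgcd fell in fibroblasts (-1.30 ± 0.27, adjusted p = 0.0134, edgeR), the only call among 17, and there it was also called in nuclei with few such UMIs (-1.41, adjusted p = 0.00258). It also fell in macrophages (-1.17 ± 0.26, adjusted p = 0.0432, edgeR), as 1 of 16. In macrophage nuclei with few such UMIs Sgcd was not called (-1.09, adjusted p = 0.0767, edgeR). In cardiomyocytes 1 of 17 rose, Bcam, a laminin alpha 5 receptor, by 0.74 ± 0.16 (adjusted p = 0.0476, edgeR), and in mural nuclei 0 of 14 were called by edgeR and by DESeq2, with 1 at an unadjusted p under 0.05.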

How the data were processed

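The authors deposited raw UMI counts, 1 matrix of genes by nuclei for each library, per the file headers. Reads were counted on mm10, per the submitters' processing notes. Which aligner and annotation were used, and how strand and introns were handled, was not given in the sources used here, so overlapping and antisense genes cannot be told apart. Nuclei were kept with at least 300 genes, at least 500 UMIs and at most 5% mitochondrial UMIs, and the 0.5% with most UMIs were removed. Scrublet (expected share 6%) removed 13.5% of passing nuclei in cKO 2 by its automatic threshold. In the other libraries that threshold marked under 0.5%, and the highest scores were removed instead (5.03% to 5.87% of nuclei). No kept cell label was shared between libraries.

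Nuclei were clustered with scanpy 1.11.5 and leidenalg 0.10.2 (2000 variable genes, 8 of them members; 30 components, 15 neighbours, resolution 1). Clusters were named by fixed markers with a rule completed after the data were seen; class names mean nuclei like those types. The members and lists were chosen with earlier results of these data known. Counts were summed per library and class and tested with edgeR 4.0.16 (R 4.3.3; quasi-likelihood, TMM, filterByExpr), adjusted by Benjamini-Hochberg over all genes at 0.05; DESeq2 1.42.0 was an alternative. Single-gene CPM of comparisons are TMM scaled; levels by class, cluster and marker sum use raw totals. Differences between classes came from a joint fit with library and class as terms. The test was checked on simulated data with 200 changed genes. Per-library values were given for members called, or with a mean in 1 class at least 2 times the next and at least 20 UMIs; partner genes were named only when called, at most 4 per list and class. Replicate numbers are shared by the groups, but with 2 pairs they were not taken to pair libraries. Results of 1 member and 1 partner gene are not reported here, though counts of calls include them. The p-values of the fits within 1 class measure the spread between pools of hearts. Those of the joint fit do not, because library is a term there. They measure the spread of class sums within the same 4 libraries.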

Additional observations from a re-analysis of the deposited data

Results flagged for a closer look

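The following members were picked out because their cKO change differed between 2 cell classes in the joint edgeR fit, with adjusted p under 0.05. Of the 32 gene and class pairs examined, 11 passed. The genes had been chosen for a call in at least 1 class of these same data, which favours a difference. The share of all genes that passed was not counted, so the 11 are not read as a result about the members. The values are differences of log2 fold changes. For Lamb1 the fibroblast change minus that of another class was -2.57 for endothelium, -1.75 for mural nuclei and -1.26 for macrophages, and the endothelial change minus the cardiomyocyte one was 1.86. For the integrins that rose in fibroblasts, the fibroblast change of Itga9 minus that of macrophages was 1.91, minus that of endothelium 1.40 and minus that of cardiomyocytes 0.96, and that of Itgb5 minus the cardiomyocyte change was 0.68. The fibroblast change of Itga8 minus the mural one was -2.36. Last, the macrophage change of Itgav was above that of cardiomyocytes by 1.31 and above that of mural nuclei by 1.45. The classes share their libraries, and a class total also reflects which clusters fill it in each group.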

How the results depend on the processing

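Across the alternatives, 108 of 144 values of the 10 calls kept the call, 36 lost it and 0 changed sign. Calls that could no longer be tested are not in this total. At the limit of 1% mitochondrial UMIs these were Itga8 in fibroblasts and Itgb6 and Lamb1 in endothelium. In nuclei with few cardiomyocyte marker UMIs it was Itgb6 in endothelium. Upper quartile scaling, no expression filter, at least 1000 UMIs and leaving members out of clustering kept all 10 calls, and so did the replicate block. With that block called members numbered 12 in cardiomyocytes, 12 in fibroblasts, 9 in endothelium, 5 in macrophages and 0 in mural nuclei. The share of all genes called with the block was not counted, so these numbers are not read as a result about the members. Same-numbered libraries deviated together with a correlation between 0.22 and 0.46, over 2 pairs only. A limit of 1% mitochondrial UMIs left 0 calls in cardiomyocytes, fibroblasts, endothelium and macrophages, from fewer nuclei and fewer tested members (6 in endothelium). A limit of 20% gave 3 calls in fibroblasts, 1 in endothelium and 2 in macrophages; Itgb6 in endothelium was then -0.48 and Lama2 -0.36. Without doublet removal Itgb6 was not called (-0.97, adjusted p = 0.0939, edgeR). Of alternatives chosen after seeing the data, nuclei with at most 0.5% cardiomyocyte marker UMIs gave 0 calls in endothelium and left Itga9 in fibroblasts at 0.82 (adjusted p = 0.0717, edgeR), leaving out the Gpnmb cluster gave 0 calls in macrophages, and leaving out clusters made almost wholly of cKO 2 nuclei changed no call. Leaving out 1 library gave 2 to 3 calls in fibroblasts, 1 to 2 in endothelium, 0 to 4 in macrophages, 1 in cardiomyocytes and 0 in mural nuclei; the lone library was then assumed to vary like the others. The causes of these losses were not tested. With 2 libraries per group, and few UMIs for genes such as Itgb6 in endothelium, a member without a call is not shown to be unchanged.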

Other observations

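Itgb1, the beta chain shared by most integrins, was looked at after its values were seen. Its log2 fold change was 0.27 in cardiomyocytes, 0.60 in fibroblasts, 0.53 in endothelium, 0.58 in mural nuclei and 0.48 in macrophages, and in each class both cKO libraries were above both control libraries. The adjusted p lay between 0.186 and 0.919 (edgeR), so there was no call, and the 5 classes come from the same 4 libraries. Groups that do not overlap, in either direction, were common among the tested members. They were 12 of 27 in cardiomyocytes, 12 of 24 in fibroblasts, 12 of 24 in endothelium, 8 of 18 in mural nuclei and 16 of 27 in macrophages. The share over all genes was not counted, so these counts are not read as a result about the members.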
